A study of Rattus norvegicus with 2 samples.

Results

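Acetylcholine signalling was followed in the orbitofrontal cortex of rats through 9 genes: Chat, which codes for the enzyme that makes acetylcholine, the muscarinic receptor genes Chrm1, Chrm2, Chrm3 and Chrm4, and the nicotinic receptor subunit genes Chrna4, Chrna5, Chrna7 and Chrnb2. They were picked by gene name and were found as 9 of the 25399 genes counted, each under 1 identifier. Male Sprague-Dawley rats aged 8 weeks had received methamphetamine (METH), a psychostimulant, at 1 mg/kg, or saline, by intraperitoneal injection for 7 days. The orbitofrontal cortex of 4 animals per group was taken, and nuclei were released with detergent and by douncing and profiled by single-nucleus RNA sequencing. Each group is 1 library, and the labels do not say how the tissue of its animals was combined. There is therefore no replicate and no test: every interval below covers counting error only, and no difference can be set against the spread between animals.

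Acetylcholine is made from choline and acetyl-CoA by choline acetyltransferase, the product of Chat, loaded into vesicles by the vesicular transporter Slc18a3, and recovered as choline by the high-affinity transporter Slc5a7. In the cortex most of it is released by axons of basal forebrain neurons, whose nuclei lie outside the cortex, and some by a small group of local interneurons, many of which carry Vip. Nicotinic receptors are ion channels of several subunits that open when acetylcholine binds. Chrna4 and Chrnb2 code for the subunits of the main heteromeric brain receptor, Chrna5 for an accessory subunit that joins it, and Chrna7 for the subunit of the calcium-permeable homomeric receptor. Muscarinic receptors act through G proteins: the receptors of Chrm1 and Chrm3 couple to Gq and phospholipase C, and those of Chrm2 and Chrm4 to Gi, which lowers cyclic AMP.

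The upstream sequences of the genes that the levels below set most clearly apart by cell type are shown first, because they differ in base composition in a way the choice of genes did not use. Each is the run of 250 bases before the RefSeq transcript start in assembly GRCr8, read 5′ to 3′ on the gene's strand, with any GC box (GGGCGG, or its reverse complement CCGCCC) in capitals. The window of Chat is chr16:7723417-7723666 on the minus strand, that of Chrna5 is chr8:64265629-64265878 on the plus strand, and that of Chrna7 is chr1:126249130-126249379 on the minus strand.
Chat: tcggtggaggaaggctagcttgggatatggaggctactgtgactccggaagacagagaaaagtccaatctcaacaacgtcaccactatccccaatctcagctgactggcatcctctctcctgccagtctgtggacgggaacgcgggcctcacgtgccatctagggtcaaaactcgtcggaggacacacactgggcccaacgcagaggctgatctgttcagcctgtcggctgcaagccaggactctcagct
Chrna5: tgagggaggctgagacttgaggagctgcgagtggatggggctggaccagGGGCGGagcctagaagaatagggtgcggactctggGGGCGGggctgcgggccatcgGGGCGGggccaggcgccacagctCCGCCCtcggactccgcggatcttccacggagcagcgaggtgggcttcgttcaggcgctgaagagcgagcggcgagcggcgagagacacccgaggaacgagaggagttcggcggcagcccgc
Chrna7: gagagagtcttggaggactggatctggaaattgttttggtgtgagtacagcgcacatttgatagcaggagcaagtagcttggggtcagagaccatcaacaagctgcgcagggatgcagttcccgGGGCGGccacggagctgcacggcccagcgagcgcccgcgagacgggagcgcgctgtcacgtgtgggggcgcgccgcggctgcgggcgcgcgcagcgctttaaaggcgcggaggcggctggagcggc
The Chat window held 0 GC boxes and 11 CpG dinucleotides. The Chrna5 window held 4 GC boxes and 26 CpG dinucleotides, and the Chrna7 window 1 GC box and 27 CpG dinucleotides, against a median of 5 CpG dinucleotides over all 33469 windows of that length. All 9 genes matched a window, and 7 of them held a GC box on either strand, the exceptions being Chat and Chrm1, beside 30.5% of all windows. A match of these letters is a description of the window and not a measured binding site.

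The METH library had 5543 cell barcodes with 44969322 UMIs (unique molecular identifiers, each standing for 1 captured transcript), and the saline library 6969 barcodes with 42221257 UMIs. After filters on genes, mitochondrial UMIs and doublets, 5159 METH and 6491 saline nuclei were kept, with medians of 6211 and 4856 UMIs, and 9 barcodes occurred in both libraries. These held 2150 METH and 3483 saline excitatory and 1288 and 1221 inhibitory neuron nuclei, classes that are also clusters named from their markers. Nuclei were grouped by their expression with the 9 genes and the other acetylcholine genes left out of the grouping, and clusters were named from marker lists as "-like" types, so a level of the 9 genes is not built into a name. An unnamed cluster with Ndst4 and Trdn among its leading genes held 202 METH nuclei and 1 saline nucleus, and an unnamed cluster led by Ctss and Ikzf1 had medians of 16724 and 9642 UMIs, above any named class. Neither enters a named type. Levels are given as CPM, the UMIs of a gene per 1000000 UMIs summed over all nuclei of a type in 1 library, with exact Poisson 95% intervals. Reads were counted at the 3′ end without a correction for length, so levels are compared between types for 1 gene and never between genes.

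Chat was found mainly in Vip-like interneurons. Its level there was 145 CPM (95% interval 121 to 172) in the METH library and 158 CPM (129.5 to 191) in the saline library. These nuclei held 127 of the 148 Chat UMIs of the METH library and 108 of the 131 of the saline library, which is 85.8% and 82.4% of its UMIs from a type that held 2.20% and 1.84% of all UMIs. Of the remaining counts, the largest were the 13 METH and 10 saline Chat UMIs (8.78% and 7.63%) of the unnamed cluster led by Ctss and Ikzf1, which held 11.4% and 7.84% of all UMIs. Excitatory neurons held 3 and 5 Chat UMIs, Sncg-like interneurons 3 and 0, oligodendrocyte-precursor-like nuclei 1 and 4, and fibroblast-like nuclei 0 and 2, the last from 17 saline nuclei. Astrocyte-like, oligodendrocyte-like, microglia-like, endothelial-like and mural-like nuclei held 0 Chat UMIs in either library. In the order of levels the Vip-like type came first in both libraries. The fibroblast-like value of 65.6 CPM in saline, from its 2 UMIs, has an interval that overlaps that of the Vip-like type, so the pair do not differ beyond counting error there. The other named types lay below it in both libraries.

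Not every Vip-like nucleus had a Chat UMI. At least 1 was seen in 56 of 183 METH nuclei (30.6%, exact 95% interval 24.0 to 37.8) and in 55 of 181 saline nuclei (30.4%, 23.8 to 37.6), and at least 2 in 34 and 30 nuclei. Oligodendrocyte-like nuclei, which should lack Chat, gave 0 of 282 and 0 of 363 nuclei, allowing shares of up to 1.06% and 0.826%, at median depths of 2070 and 1532 UMIs against 4395 and 3321 in Vip-like nuclei. With each nucleus thinned to 1000 UMIs, the share of Vip-like nuclei with Chat was 14.4% in METH and 15.0% in saline, and 0% of the thinned oligodendrocyte-like nuclei. Within the Vip-like type the levels were uneven: a finer cluster whose first leading gene was Chat itself, before Colec12 and Vip, had 197 and 213 CPM in METH and saline, with Chat in 40.9% and 38.1% of its nuclei. A finer cluster led by Penk had 15.7 CPM (95% interval 4.28 to 40.2) in METH and 10.9 CPM (1.32 to 39.5) in saline, from only 4 and 2 Chat UMIs.

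Transporters of cholinergic neurons were seen in a higher share of the Vip-like nuclei with Chat than of those without, Slc18a3 on few nuclei. The depths of nuclei with and without Chat were not compared. Whether the higher share holds at equal depth was not tested. Slc5a7, the choline transporter, was seen in 26 of the 56 METH nuclei with Chat (46.4%) and 18 of the 55 saline nuclei (32.7%), against 12 of 127 (9.45%) and 21 of 126 (16.7%) of the Vip-like nuclei without a Chat UMI. Its level in the Vip-like type was 70.7 and 78.9 CPM. Unlike Chat, Slc5a7 was also seen in Sst-like interneurons, at 10.1 and 8.08 CPM from 28 METH and 16 saline UMIs. Slc18a3, the vesicular transporter, whose gene lies within Chat in the RefSeq annotation, was found in 5 of 56 and 7 of 55 nuclei with Chat, and in 7 of 127 and 2 of 126 without, at 14.8 and 13.2 CPM over the type. Reads of Slc18a3 and Chat can be divided by the counting, since the genes overlap. Vip was seen in 55 of 56 METH nuclei with Chat (98.2%, against 93.7% of those without) and in 46 of 55 saline nuclei (83.6%, against 93.7%). Gad1, a GABA-synthesising enzyme, was seen in 78.6% and 69.1% of nuclei with Chat against 80.3% and 68.3% without, and Gad2, another such enzyme, in 67.9% and 58.2% against 69.3% and 61.1%. The vesicular GABA transporter gene Slc32a1 was sparser, in 5 of 56 and 13 of 55 nuclei with Chat (8.93% and 23.6%) against 13.4% and 25.4% without. Calb2, the calcium-binding protein of many bipolar interneurons, was seen in 28.6% and 21.8% against 18.1% and 11.1%. Slc17a7, a glutamate transporter of excitatory neurons, was seen in 8 of 56 and 8 of 55 nuclei with Chat (14.3% and 14.5%) against 8.66% and 14.3% without. At least 1 Vip UMI was also seen in 9.97% and 8.34% of excitatory neuron nuclei without Chat, a class that should lack it. The basal forebrain transcription factor genes Lhx8 and Isl1 had 0 UMIs in either library, and Ngfr, Gbx1 and Zic4 had 0 in Vip-like nuclei.

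**Figure D1:**
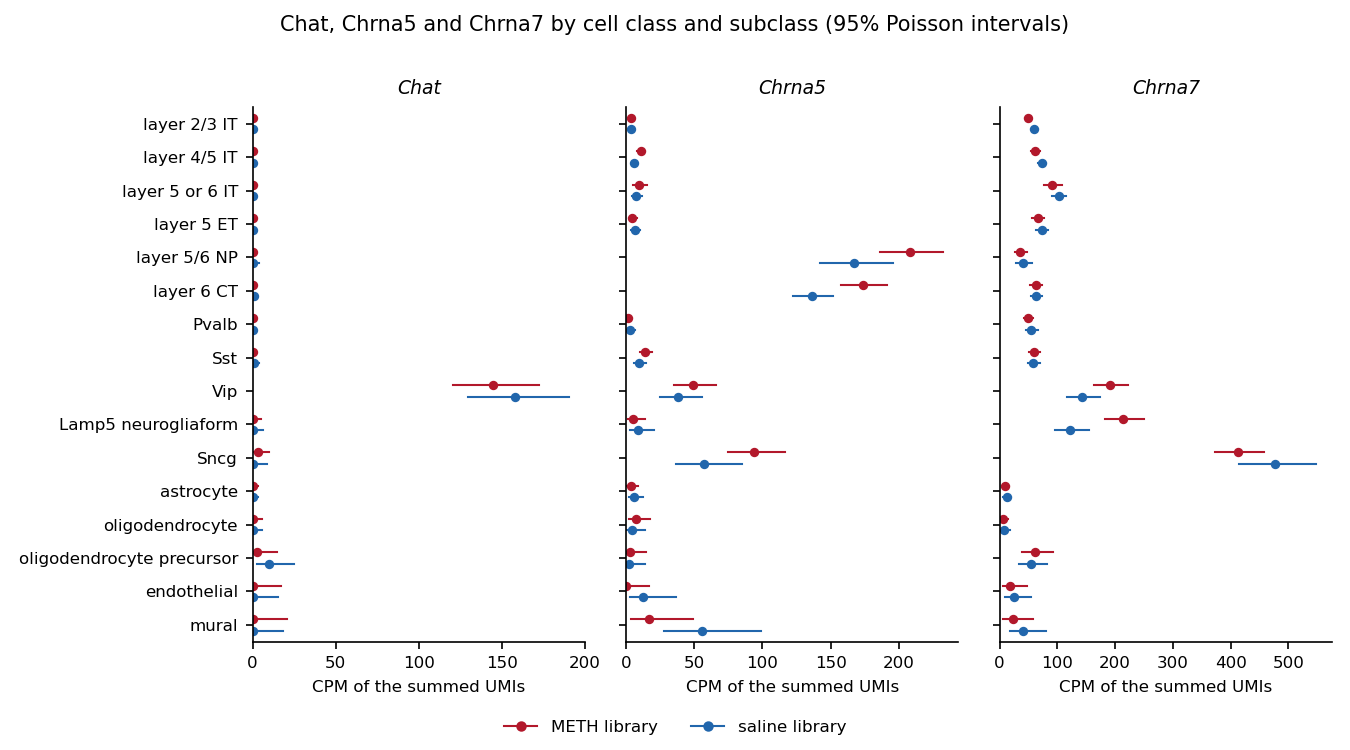
Levels of Chat, Chrna5 and Chrna7 (x axis, CPM of the summed UMIs, a separate scale for each gene) in 16 cell types (y axis, shown without "-like"). Points are 1 library each, METH in red and saline in blue, and lines are exact Poisson 95% intervals: Chat stands out in Vip at 145 and 158 CPM, Chrna5 in layer 5/6 NP and layer 6 CT, and Chrna7 in Sncg.

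Chrm1 and Chrm3, the genes of the Gq-coupled receptors, were sparsely counted. Chrm1 gave 28 METH and 26 saline UMIs over all kept nuclei and never more than 1 in a nucleus. Excitatory neurons held 17 and 21 of them, a level of 0.757 and 0.829 CPM, and no pair of neighbouring types in its order differed beyond counting error. Chrm3 gave 172 and 159 UMIs. Its level was 7.54 CPM (95% interval 4.67 to 11.5) in the METH library and 14.6 CPM (9.80 to 21.0) in the saline library in Sst-like interneurons, 10.3 and 11.7 CPM in Vip-like and 7.93 and 9.50 CPM in Sncg-like interneurons, and 6.40 and 5.41 CPM in layer 2/3 intratelencephalic-like (IT, projecting within the cortex) neurons. OPC-like nuclei (oligodendrocyte precursors) ranked between the Sncg-like and layer 2/3 IT-like types, at 10.7 and 2.45 CPM on 4 METH and 1 saline UMIs. Neighbours in this order overlapped in their intervals. The Sst-like level was above that of layer 5 extratelencephalic-like (ET, projecting out of the cortex) neurons, at 1.86 and 1.19 CPM, in both libraries. Near-projecting-like neurons of layers 5 and 6 (layer 5/6 NP, neurons with short axons) gave 0 Chrm3 UMIs in both libraries, which allows up to 1.93 and 3.20 CPM.

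The genes of the Gi-coupled receptors, Chrm2 and Chrm4, had opposite places in layer 5/6 NP-like neurons, where Chrm2 was highest and Chrm4 lowest among the excitatory types. Chrm2 gave only 58 METH and 77 saline UMIs in all. Its NP-like level, the highest among the neuron types, was 10.3 CPM (95% interval 5.88 to 16.7) in the METH library and 14.9 CPM (8.15 to 25.0) in the saline library. NP-like nuclei held 27.6% and 18.2% of the Chrm2 UMIs beside 3.91% and 2.52% of all UMIs. Its level in layer 4/5 IT-like neurons was 1.73 and 3.77 CPM, below the NP-like level in both libraries, and Vip-like nuclei gave 0 Chrm2 UMIs in both. Mural-like nuclei ranked next, on 1 UMI in each library.

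Chrm4 was counted in every excitatory type. In layer 4/5 IT-like neurons it was at 38.5 CPM (95% interval 33.1 to 44.6) in the METH library and 35.7 CPM (31.5 to 40.2) in the saline library. It was at 20.4 and 23.4 CPM in layer 2/3 IT-like, 21.3 and 26.3 CPM in layer 5 or 6 IT-like, 24.6 and 28.2 CPM in layer 5 ET-like and 20.5 and 22.2 CPM in layer 6 corticothalamic-like (CT) neurons. In NP-like neurons it was at 7.71 CPM (95% interval 3.99 to 13.5) in the METH library and 6.39 CPM (2.35 to 13.9) in the saline library. The layer 4/5 IT-like level was above the layer 2/3 IT-like level, and the CT-like level above the NP-like level, in both libraries, whereas the layer 5 or 6 IT-like and ET-like types overlapped. Among interneurons, Chrm4 was at 27.2 CPM (95% interval 21.5 to 33.9) in the METH library and 36.3 CPM (28.5 to 45.6) in the saline library in Pvalb-like nuclei, above 6.46 and 10.1 CPM in Sst-like nuclei in both libraries. An unnamed inhibitory cluster led by Cpne4 and Ntng1, of 44 METH and 33 saline nuclei, had 58.8 and 56.6 CPM, which overlapped the layer 4/5 IT-like level. Mural-like nuclei gave 39.4 and 40.3 CPM, on 7 METH and 8 saline UMIs. In the RefSeq annotation Chrm4 overlaps Mdk, Chrm2 overlaps Mir490 and a long non-coding RNA, and Chrm3 a long non-coding RNA, so reads there may be shared.

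Chrna4 and Chrnb2, the subunits that form a receptor together, did not follow each other. In layer 5/6 NP-like neurons Chrna4 was at 39.9 CPM (95% interval 30.6 to 51.1) in the METH library and 44.8 CPM (32.2 to 60.5) in the saline library. In Vip-like interneurons it was at 37.6 CPM (95% interval 25.9 to 52.9) in the METH library and 46.8 CPM (32 to 66.0) in the saline library, and these types did not differ beyond counting error. It was lower in layer 2/3 IT-like neurons (10.4 and 10.0 CPM), and in Pvalb-like (6.20 and 12.9 CPM) and Sst-like interneurons (6.10 and 7.57 CPM), in both libraries. Layer 6 CT-like neurons had 18.0 and 31.9 CPM, below the NP-like level in the METH library only. Sparse non-neuronal counts gave 23.3 and 32.8 CPM in fibroblast-like, 18.6 and 28.4 CPM in microglia-like and 22.5 and 20.2 CPM in mural-like nuclei. Each of these rests on 4 UMIs or fewer per library. Astrocyte-like nuclei were at 6.86 and 7.84 CPM, oligodendrocyte-like at 4.42 and 6.19 CPM and endothelial-like at 0 and 12.4 CPM. Both Vip-like finer clusters carried Chrna4, at 36.9 and 44.2 CPM in that with Chat and 39.2 and 54.6 CPM in that led by Penk. Chrnb2 showed no difference between subclasses beyond counting error. In 11 named neuronal subclasses it lay between 4.07 and 8.67 CPM in METH and between 2.92 and 8.73 CPM in saline, and all of these intervals overlapped within each library. Some rest on few counts, such as 5 METH and 2 saline UMIs in Vip-like and 3 and 3 in Lamp5-like nuclei, so evenness is not shown. Chandelier-like interneurons, of 25 METH and 17 saline nuclei, gave 1 and 0 Chrnb2 UMIs and are left out. Both genes were seen in the same nucleus 24 times among 2150 METH and 19 times among 3483 saline excitatory neurons. Nuclei with Chrna4 held Chrnb2 in 7.77% and 4.34% of cases, and those without it in 7.01% and 4.60%, at counts too sparse to show an association.

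**Figure D2:**
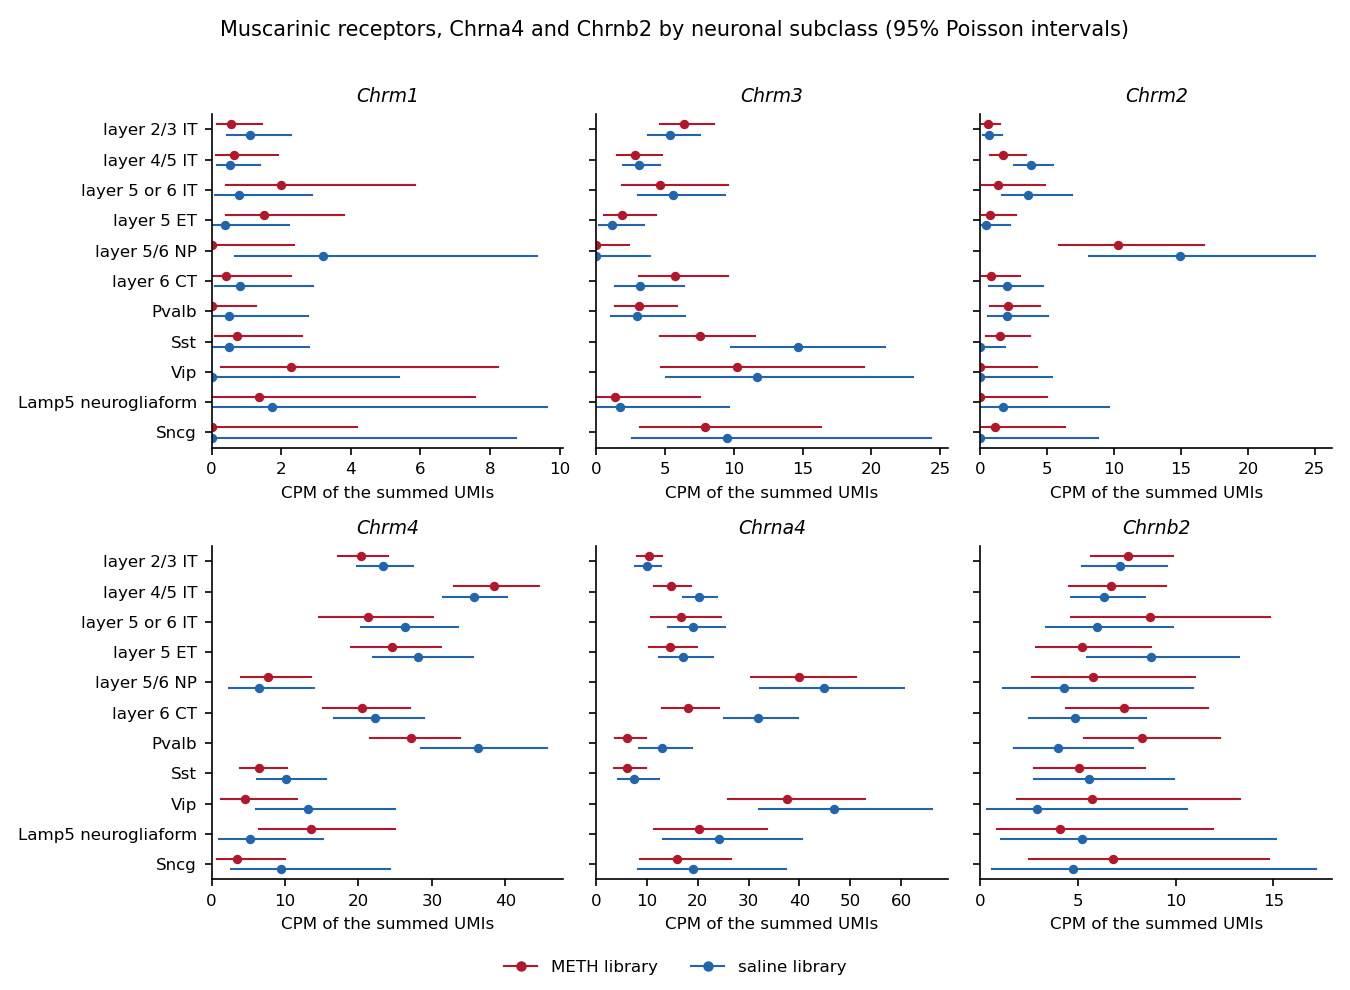
Levels of Chrm1, Chrm3, Chrm2, Chrm4, Chrna4 and Chrnb2 (x axis, CPM of the summed UMIs, a separate scale for each gene) in 11 neuronal subclasses (y axis, shown without "-like"), METH in red and saline in blue with exact Poisson 95% intervals. Chrm2 is highest and Chrm4 lowest among the excitatory types in layer 5/6 NP, and Chrnb2 overlaps between all subclasses.

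Chrna5 was highest in the deep-layer excitatory neurons. In layer 5/6 NP-like neurons its level was 208 CPM (95% interval 186 to 232) in the METH library and 167 CPM (142 to 196) in the saline library. In layer 6 CT-like neurons it was 174 CPM (95% interval 158 to 191) in the METH library and 136 CPM (122 to 152) in the saline library, a pair whose intervals overlapped in both libraries. The gap between CT-like neurons and the next type, Sncg-like interneurons at 94.0 CPM (95% interval 74.9 to 117) in the METH library and 57 CPM (36.5 to 84.8) in the saline library, held in both libraries. Vip-like interneurons followed with 49.0 and 38.0 CPM, and mural-like nuclei with 16.9 and 55.5 CPM from 3 METH and 11 saline UMIs. The other excitatory types were low: layer 5 or 6 IT-like neurons had 9.34 and 7.18 CPM, layer 4/5 IT-like 10.6 and 6.19 CPM, layer 5 ET-like 4.47 and 6.35 CPM and layer 2/3 IT-like 3.98 and 3.98 CPM, and Pvalb-like interneurons had 1.72 and 2.98 CPM. At least 1 Chrna5 UMI was seen in 64.6% and 46.0% of NP-like nuclei and in 57.6% and 44.8% of CT-like nuclei, beside 1.77% and 0.826% of oligodendrocyte-like nuclei. Thinned to 1000 UMIs, the shares were 20.3% and 15.8% in NP-like, 14.8% and 12.2% in CT-like and 0% and 0.926% in oligodendrocyte-like nuclei. Nuclei with Chrna4 in the NP-like type held Chrna5 in 37 of 50 cases in METH (74.0%, against 62.0% of the rest) and 17 of 37 in saline (45.9%, against 46.0%), so no shared excess was seen in both libraries. In RefSeq, Chrna5 lies beside Chrna3, the gene of another nicotinic subunit. Chrna3 had only 1.25 and 1.74 CPM in excitatory neurons, and was at 4.33 and 4.04 CPM in layer 4/5 IT-like and 0.643 and 0 CPM in NP-like neurons. With 43 METH and 66 saline UMIs of Chrna3 over all kept nuclei, its counts are too few to set its pattern beside that of Chrna5.

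Chrna7, the most counted of the 9 genes with 2766 METH and 2587 saline UMIs, was highest in Sncg-like interneurons, at 414 CPM (95% interval 372 to 458) in the METH library and 477 CPM (414 to 548) in the saline library. This was above the next type in both libraries, and 77.7% and 80.2% of its nuclei held at least 1 UMI (25.6% and 34.6% when thinned). Lamp5 neurogliaform-like interneurons had 214 CPM (95% interval 182 to 250.4) in the METH library and 123 CPM (95.8 to 155) in the saline library, and Vip-like interneurons 190.5 CPM (95% interval 163 to 222) in the METH library and 143 CPM (116 to 175) in the saline library. These neighbours overlapped and changed places between the libraries. Excitatory neurons had Chrna7 throughout: the class was at 59.3 and 68.1 CPM, from 36 and 40.5 CPM in layer 5/6 NP-like to 91.4 and 102 CPM in layer 5 or 6 IT-like neurons, which differed in both libraries. Pvalb-like and Sst-like interneurons had 49.6 and 55.2 CPM and 60.3 and 58.5 CPM.

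Of the nuclei that are not neurons, the OPC-like nuclei had the clearest Chrna7. Their level was 61.6 CPM (95% interval 39.1 to 92.5) in the METH library and 53.9 CPM (33.8 to 81.6) in the saline library, in 14.6% and 10.8% of nuclei. Oligodendrocyte-like nuclei were at 5.89 CPM (95% interval 1.61 to 15.1) in the METH library and 7.74 CPM (2.51 to 18.1) in the saline library. Astrocyte-like nuclei were at 8.57 CPM (95% interval 4.11 to 15.8) in the METH library and 12.2 CPM (6.67 to 20.5) in the saline library, both below the OPC-like level in each library. Thinned to 1000 UMIs, Chrna7 was seen in 5.97% and 6.21% of OPC-like nuclei, against 0.717% and 0.926% of oligodendrocyte-like nuclei. The other 8 genes gave between 0 and 9 UMIs in OPC-like nuclei of either library. The most counted of these was Chrna4, on 5 METH and 9 saline UMIs. Those counts are a level of 13.4 and 22.05 CPM, beside 14.7 and 20.3 CPM of Chrna4 in layer 4/5 IT-like neurons. Endothelial-like nuclei had 4 METH and 6 saline UMIs of Chrna7 and mural-like nuclei 4 METH and 8 saline UMIs.

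Within interneuron types, Chrna7 varied widely between finer clusters, of which those named here were chosen after their values were seen. In the Lamp5-like type, a cluster led by Sv2c and Hapln1 had 448 CPM (95% interval 371 to 535) in the METH library and 277 CPM (207 to 364) in the saline library. The other, led by Sv2c and Pde11a, had 80.5 CPM (95% interval 57 to 111) in the METH library and 48.3 CPM (29.5 to 74.6) in the saline library. The Sncg-like cluster led by Col4a3 had 304 and 470.3 CPM. An unnamed finer cluster led by Rxfp1 had 471 and 488 CPM, and it also held the highest Chrna5 among the finer interneuron clusters, at 121 and 72.4 CPM. Sst-like interneurons had, for example, 20.7 and 8.43 CPM in a cluster led by Pappa2 and 134 and 98.0 CPM in a cluster led by Trabd2b, which also carried Chrna5 at 39.4 and 34.6 CPM. Pvalb-like interneurons had 10.3 and 10.6 CPM in a cluster led by Mybpc1 and 11.7 and 12.7 CPM in a cluster led by Ltbp1, against 93.5 and 80.9 CPM in a cluster led by Egflam. Between the low and the high clusters named for the Lamp5-like, Sst-like and Pvalb-like types the intervals were apart in both libraries. In Sncg-like nuclei with Chrna5, Chrna7 was also found in 28 of 32 METH and 13 of 14 saline nuclei (87.5% and 92.9%), beside 74.2% and 77.6% of those without Chrna5.

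**Figure D3:**
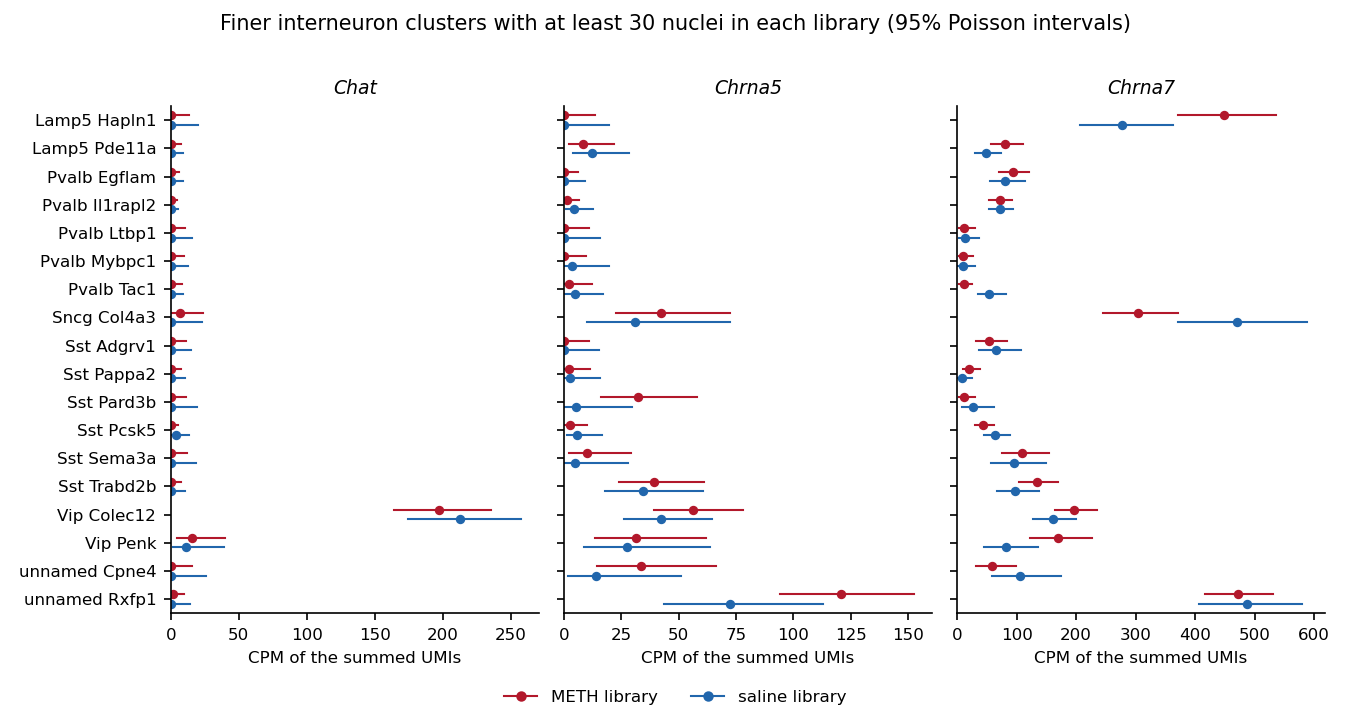
Levels of Chat, Chrna5 and Chrna7 (x axis, CPM of the summed UMIs, a separate scale for each gene) in the 18 finer interneuron clusters with at least 30 nuclei in each library (y axis, the type without "-like" and a leading gene), METH in red and saline in blue with exact Poisson 95% intervals. Chat is confined to the Vip clusters among these 18 apart from counts of a few UMIs, and Chrna7 is highest in unnamed Rxfp1, Sncg Col4a3 and Lamp5 Hapln1.

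The genes whose levels were most like each member over 22 types (Pearson r of log2(CPM + 10), mean of both libraries, among 10860 genes) are a description of the same clusters and carry no test. For Chat they were Tpbg (r = 0.933), Th (0.916), the gene of tyrosine hydroxylase, and Grpr (0.915), a peptide receptor gene. For Chrna5 they were Glra2 (0.870), a glycine receptor subunit, Vwc2l (0.858) and Hcrtr2 (0.827), an orexin receptor. For Chrna7 they were Tcf20 (0.880), Rims2 (0.878) and Kif5c (0.870). Chrm2 was most like Skint10 (0.835), Ddx43 (0.831) and Adamts18 (0.828), Chrm4 like Slit3 (0.820), Fbxw7 (0.809) and Ndst3 (0.803), and Chrm3 like Gng4 (0.777) and Nkain3 (0.764). Chrna4 had only weaker likeness, to Plxnb2 (0.691), Zfp64 (0.688) and Wnt2 (0.676). Chrnb2 was most like Dbn1 (0.927), Slc12a5 (0.919), the neuronal chloride transporter, and Vom2r80 (0.911). Chrm1 had too few UMIs to be ranked.

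The second question of the design is whether these genes differed between METH and saline. A gene was compared in a type where it had at least 100 UMIs over both libraries, at least 20 CPM in either, and where each library had at least 50 nuclei of the type. It was called different where both its ratio and the bound of its interval nearest to no change passed 1.5-fold. Of the 9 genes, 5 could be compared in at least 1 type, giving 27 gene and type pairs over the named classes and subclasses, and none of the 27 was called. An unnamed excitatory cluster led by Il1rapl2 and Rftn1 also met the minimum for Chrm4, Chrna4 and Chrna7, and is not among the 27. In excitatory neurons 3 of the 9 genes were compared and 0.322% of all 7139 genes were called, and in inhibitory neurons 2 of the 9 and 0.278% of 7550 genes. A count of 0 among so few genes is near that background. The remaining shares of genes called were 0.313% in layer 2/3 IT-like, 0.224% in layer 4/5 IT-like, 0.242% in layer 5 or 6 IT-like, 0.315% in layer 5 ET-like, 0.14% in layer 5/6 NP-like and 0.391% in layer 6 CT-like neurons. Among interneurons they were 0.182% in Pvalb-like, 0.369% in Sst-like, 0.146% in Vip-like, 0.454% in Lamp5-like and 0.143% in Sncg-like nuclei. None of the 9 genes reached the minimum in astrocyte-like (0.772% of genes called), oligodendrocyte-like (0.973%), OPC-like (0.115%), endothelial-like (3.05%) or mural-like nuclei (1.46%).

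Chat in Vip-like interneurons had a log2 ratio of METH over saline of -0.12 (95% interval -0.51 to 0.26), an interval that holds no change and small changes either way. Chrm4 was slightly lower in METH in excitatory neurons as a class, at 24.7 and 27.8 CPM (log2 ratio -0.17, 95% interval -0.34 to -0.01). With the subclasses weighted alike the class ratio was -0.10. By type it was 0.11 in layer 4/5 IT-like, -0.20 in layer 2/3 IT-like, -0.20 in layer 5 ET-like and -0.12 in layer 6 CT-like neurons. Layer 4/5 IT-like nuclei were 447 of 2150 excitatory nuclei in METH and 1057 of 3483 in saline. In Pvalb-like interneurons the log2 ratio of Chrm4 was -0.42 (95% interval -0.89 to 0.06). Chrna4 was lower in METH in layer 6 CT-like neurons, at 18.0 and 31.9 CPM (log2 ratio -0.82, 95% interval -1.39 to -0.27). This is the lowest of the 27 ratios and stayed between -0.90 and -0.65 under the alternatives run. In layer 4/5 IT-like neurons the Chrna4 log2 ratio was -0.47 (95% interval -0.90 to -0.04), and 0.33 when each nucleus was thinned to 1000 UMIs. In layer 5/6 NP-like neurons it was -0.17 (95% interval -0.76 to 0.43).

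Chrna5 was higher in METH in each type where it could be compared. Excitatory neurons as a class had 39.9 CPM (95% interval 37.3 to 42.6) in the METH library and 25.9 CPM (23.9 to 27.9) in the saline library, a log2 ratio of 0.62 (95% interval 0.48 to 0.77). The types that carry Chrna5 also made up more of that class in METH: NP-like and CT-like nuclei were 534 of 2150 excitatory nuclei (24.8%, exact 95% interval 23.0 to 26.7) against 653 of 3483 (18.7%, 17.5 to 20.1) in saline, and they held 83.6% and 75.6% of the excitatory Chrna5 UMIs. With the subclasses weighted alike the log2 ratio was 0.33. Within the types it was 0.32 (95% interval 0.04 to 0.60) in NP-like and 0.35 (95% interval 0.14 to 0.56) in CT-like neurons. With nuclei of the libraries matched on UMIs per nucleus, the ratio of the class was 1.34 and was called, the only call of a member under the alternatives run. Calls over all genes in this class also rose with matched nuclei. The number of genes compared under matching, and so the share called, is not given here. Of the 1857 matched excitatory nuclei of each library, 512 in METH (27.6%) and 231 in saline (12.4%) were NP-like or CT-like, a wider gap than before matching. In Sncg-like interneurons the log2 ratio of Chrna5 was 0.72 (95% interval 0.05 to 1.44) on 83 METH and 24 saline UMIs. It turned to -0.25 with nuclei matched on UMIs and to -0.94 after thinning, so its direction did not hold under both. Inhibitory neurons as a class had 0.58 (95% interval 0.20 to 0.96), and 0.50 with the subclasses weighted alike. Sncg-like nuclei were 121 of 1288 inhibitory nuclei in METH and 81 of 1221 in saline, and held 83 of 186 and 24 of 86 inhibitory Chrna5 UMIs.

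Chrna7 differed in direction between types. Over the whole libraries its log2 ratio was 0.00. In excitatory neurons it was lower in METH, with a log2 ratio of -0.20 (95% interval -0.30 to -0.10), and in layer 2/3 IT-like and layer 4/5 IT-like neurons with -0.28 (95% interval -0.50 to -0.07) and -0.25 (95% interval -0.46 to -0.04). With matched nuclei the class ratio was -0.31 and the layer 2/3 IT-like ratio -0.45. After thinning they were -0.10 and -0.16, and the layer 4/5 IT-like ratio was -0.60. Not all excitatory types went this way. The unnamed excitatory cluster led by Il1rapl2 and Rftn1 had more Chrna7 in METH, at 66.5 against 52.1 CPM, from 175 METH and 165 saline UMIs. In inhibitory neurons Chrna7 was higher in METH, with a log2 ratio of 0.18 (95% interval 0.04 to 0.33). That ratio was -0.00 with nuclei matched on UMIs per nucleus, but 0.50 after thinning. Lamp5 neurogliaform-like interneurons had the largest ratio of Chrna7, 0.80 (95% interval 0.39 to 1.23), on 158 METH and 71 saline UMIs from 107 and 123 nuclei. It was seen within both of their finer clusters, at 0.69 (95% interval 0.21 to 1.19) in the cluster led by Hapln1 and 0.74 (95% interval -0.08 to 1.60) in the cluster led by Pde11a. It was 0.52 with no doublets removed and 1.40 after thinning. Vip-like interneurons had 0.41 (95% interval 0.04 to 0.79), which was 0.08 with no doublets removed and 1.26 after thinning. Sncg-like interneurons, where Chrna7 was highest, had -0.21 (95% interval -0.46 to 0.05), Pvalb-like -0.16 (95% interval -0.52 to 0.21) and Sst-like 0.04 (95% interval -0.31 to 0.40). The Sncg-like ratio was -0.51 with matched nuclei, and the Sst-like ratio 0.51 after thinning. All of these ratios stayed inside the rule for a call, and METH nuclei were deeper than saline nuclei in each of these types; the part of depth in them was tested only by the matched and thinned values given.

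**Figure D4:**
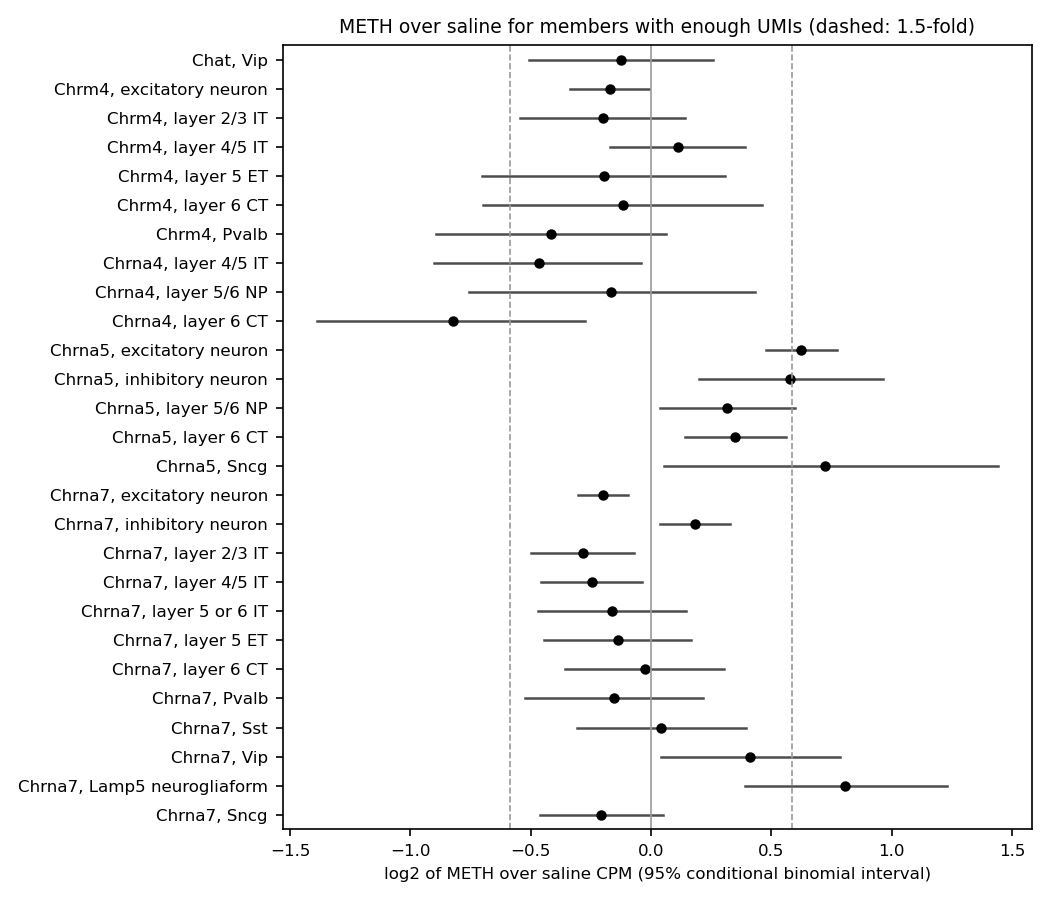
Log2 ratio of METH over saline CPM (x axis) for the 27 gene and type pairs of named types with enough UMIs (y axis, types shown without "-like"), with conditional binomial 95% intervals and dashed lines at 1.5-fold. Chrna5 ratios lie above 0 in all 5 types and Chrna7 ratios on both sides of 0, and no interval clears a dashed line.

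For the 4 genes that could be compared in no type, Chrm1, Chrm2, Chrm3 and Chrnb2, the values are these. Chrm3 in Sst-like interneurons was 7.54 and 14.6 CPM in METH and saline, from 21 METH and 29 saline UMIs. Chrm2 in excitatory neurons gave 34 METH and 63 saline UMIs, or 1.51 and 2.49 CPM. Chrnb2 in excitatory neurons was 7.39 and 6.63 CPM and in inhibitory neurons 6.41 and 4.56 CPM. These levels are under the minimum, and no direction is read from them.

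Of a list of 50 other genes of acetylcholine signalling, 48 were found, and 2 of the comparisons of these genes were called. Between 5 genes (mural-like) and 24 (inhibitory neurons) of the list were compared in each named class and subclass. In all of these but astrocyte-like and endothelial-like nuclei 0 were called. Over all genes, the share called ran from 0.115% in OPC-like to 3.05% in endothelial-like nuclei. In excitatory neurons 21 of the 48 were compared and 0 called, 11 with ratios above and 10 below no change, with a median log2 ratio of 0.02 beside -0.01 over all genes compared. In inhibitory neurons 24 were compared and 0 called, 12 on each side. In astrocyte-like nuclei 16 were compared and 1 called, beside 0.772% of all genes, 4 with ratios above and 12 below no change, with a median of -0.19 beside -0.07 over all genes compared. In endothelial-like nuclei 7 were compared and 1 called, beside 3.05% of all genes, 2 above and 5 below no change, with a median of -0.17 beside 0.06. Kcnj3, a subunit of the potassium channel that Gi-coupled muscarinic receptors open, was called lower in METH in astrocyte-like nuclei, at 30.9 and 85.4 CPM from 36 METH and 98 saline UMIs (log2 ratio -1.47, 95% interval -2.06 to -0.90). Kcnq3, a subunit of the M-current potassium channel that muscarinic receptors close, was called lower in endothelial-like nuclei, at 200.4 and 689 CPM from 43 METH and 166 saline UMIs (log2 ratio -1.78, 95% interval -2.30 to -1.29). The Kcnj3 log2 ratio was -0.70 with no doublets removed, -1.03 with matched nuclei and -0.78 with thinned nuclei, and was called under none of these. The Kcnq3 log2 ratio turned to 0.64 with no doublets removed. It was -0.56 with at most 1% mitochondrial UMIs, -0.70 at a Leiden resolution of 2 and with all genes allowed in the clustering, -1.11 with matched and -0.58 with thinned nuclei, none of them called. Both were higher in neurons: excitatory neurons had 619 and 739 CPM of Kcnj3 and 1419 and 1599 CPM of Kcnq3, and the 6 measured markers of excitatory neurons summed to 2610 and 2603 CPM there. In astrocyte-like nuclei these markers summed to 148 and 254 CPM with 0 of 6 at 0 UMIs, and in endothelial-like nuclei to 610.5 and 896 CPM with 1 of 6 at 0 UMIs in each library, lower in METH in both types as were Kcnj3 and Kcnq3. The part of such RNA in these ratios was not tested. Kcnq5 was at 864 and 836 CPM in excitatory and highest among the interneurons in Sncg-like nuclei, at 1465 and 1572 CPM.

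The remaining receptor genes of the list were less counted. Chrm5 was at 49.9 and 33.2 CPM in Sncg-like interneurons, the type with the highest Chrna7, and at 5.21 and 5.45 CPM in excitatory neurons. Chrna2 was at 15.7 and 8.33 CPM in layer 5 ET-like and 9.82 and 4.77 CPM in layer 2/3 IT-like neurons, and Chrnb1 at 4.85 and 5.53 CPM in excitatory neurons as a class. Chrna6 and Chrnd had 0 UMIs in both libraries. Among the enzymes that break acetylcholine down, Ache was at 41.6 and 42.9 CPM in Sst-like and 21.2 and 32.0 CPM in NP-like neurons, and Bche at 82.9 and 84.3 CPM in Sst-like and 65.2 and 73 CPM in ET-like neurons. Colq, which anchors acetylcholinesterase, was at 11.4 and 5.85 CPM in Vip-like interneurons on 10 METH and 4 saline UMIs. Of the Ly6-family genes, whose products include modulators of nicotinic receptors, Lypd6b was at 285 CPM (95% interval 265 to 305) in the METH library and 241 CPM (220.1 to 264) in the saline library in Sst-like interneurons and at 1.11 and 1.46 CPM in excitatory neurons, whereas Ly6h was at 163 and 173 CPM and 180.5 and 193 CPM in excitatory and inhibitory neurons, and Ly6e at 69.1 and 66.6 CPM and 24.4 and 27.6 CPM. The genes of precursor supply were widely spread: Slc44a1, a choline transporter of many cells, reached 1757 and 1771 CPM in oligodendrocyte-like nuclei, Chka, choline kinase, was at 253 and 220.1 CPM in excitatory neurons, and Acly, an enzyme that makes acetyl-CoA, at 46.9 and 45.7 CPM.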

How the data were processed

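Single-nucleus RNA libraries of 1 METH and 1 saline group were analysed from the UMI counts per gene and barcode that the authors deposited, made with Cell Ranger 7.0.0 per the submitters' processing notes. Those notes name hg38, a human build, whereas the deposited gene identifiers are those of rat. For the rat build and annotation and the intron setting: not given in the sources used here. A nucleus needed 500 genes or more, and 5% or less of its UMIs from mitochondrial genes. Scrublet (expected rate 0.06) removed 328 METH and 419 saline doublets. Clustering used scanpy 1.11.5 and igraph 0.11.9, on 2000 variable genes without the 9 members and the other acetylcholine genes, 30 components, 15 neighbours, and Leiden resolution 1, or 0.5 within classes. A cluster's marker level is the mean over a list's markers, each scaled to its highest cluster. Classes were named where 1 list of at least 3 detected markers reached 0.4 and no unrelated list did, where that list reached 0.6 in some cluster, and where at most 90% of the cluster, counted as shares of each library, came from 1 library; subclasses where a list reached 0.4 and led the next by 0.1. These thresholds were set after seeing the clusters' markers. In alternatives, a cluster took the name most of its nuclei had. Counts were summed per type and library and scaled to CPM; intervals are exact (Poisson, conditional binomial for ratios, Clopper-Pearson for shares; scipy 1.17.1, numpy 2.4.6) at 95%. A count of 0 allows up to 3 counts. The ratio and its call were tested on counts simulated with known changes and Poisson error alone, from a profile shared by both libraries. That simulation held no spread between animals, libraries or nuclei. Alternatives changed the filters, doublet removal, clustering, scaling (edgeR 4.0.16 TMM and DESeq2 1.42.0 size factors in R 4.3.3, used for factors alone), matching and thinning of nuclei, and the count minimum. The members and lists were chosen with earlier results of these data known. Named beside the members are acetylcholine genes that passed the call, up to 3 per group of the list with the highest CPM in neurons, the vesicular and choline transporters and cholinergic and neuronal marker genes with Chat, and for each member the 3 genes with the most similar levels (1 of those for Chrm3 is not reported here); genes that lead a cluster are named to identify it, and Chrna6 and Chrnd for their count of 0. Promoter windows are from RefSeq.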

Additional observations from a re-analysis of the deposited data

Results flagged for a closer look

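Chrna7 is listed again because its log2 ratio of METH over saline had opposite signs in the neuron classes, with intervals that left 0 on either side; the difference between the types was not tested, since each group is 1 library. It was -0.20 in excitatory neurons, -0.28 in layer 2/3 IT-like and -0.25 in layer 4/5 IT-like neurons. It was 0.18 in inhibitory neurons, 0.41 in Vip-like and 0.80 in Lamp5 neurogliaform-like interneurons, but -0.21 in Sncg-like, -0.16 in Pvalb-like and 0.04 in Sst-like interneurons, whose intervals included 0. The value for inhibitory neurons was -0.00 with nuclei matched on UMIs per nucleus and 0.50 after thinning. That for Vip-like interneurons was 0.08 with no doublets removed and 1.26 after thinning. Excitatory types also differed among themselves: the unnamed cluster led by Il1rapl2 and Rftn1 had Chrna7 at 66.5 CPM in METH and 52.1 CPM in saline.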

How the results depend on the processing

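The 27 log2 ratios gave 326 values under the alternatives, of which 308 lay within the reported interval and 18 outside it. The interval of 14 ratios left 0, and 11 of these kept their sign under every alternative run. The 4 values with the other sign, of 172, were Chrna7 in inhibitory neurons (-0.00, nuclei matched on UMIs), Chrna4 in layer 4/5 IT-like neurons (0.33, thinned) and Chrna5 in Sncg-like interneurons (-0.25, matched, and -0.94, thinned). Of 16 levels, 183 of 192 values under alternatives lay within the reported intervals. The count of member calls was 0, and 1 with nuclei matched on UMIs per nucleus. The 2 calls among the other acetylcholine genes became 1 with at least 1000 genes per nucleus, with at most 1% mitochondrial UMIs, with all genes allowed in the clustering and at a Leiden resolution of 2. They became 0 with no doublet removal, with matched nuclei and with thinned nuclei, and 6 with a minimum of 30 UMIs and no CPM minimum. Over all genes, the 23 calls in excitatory neurons became 45 with matched nuclei, 10 with thinned nuclei and 104 with the minimum of 30 UMIs, and the 21 in inhibitory neurons became 9 with thinned nuclei and 53 with that minimum. Thinning leaves fewer UMIs and so fewer genes to compare, and the lower minimum more; the cause of the other differences was not tested. Shares of nuclei moved with thinning: Chat in Vip-like nuclei from 30.6% and 30.4% to 14.4% and 15.0%, and Slc5a7 in those with Chat from 46.4% and 32.7% to 11.5% and 11.1%. The share of inhibitory Chat UMIs that lay in Vip-like nuclei, 96.9% in METH and 98.2% in saline by the settings of the report, was 83.2% in METH with no doublet removal and 100% in saline with thinned nuclei. The subclass with the highest level changed for Chrna4 under 5 alternatives, to Vip-like in 4 and Sncg-like in 1, for Chrnb2 under 2 and for Chrm3 under 1. TMM and DESeq2 size factors kept the sign of the 14 ratios above; of the median log2 ratios of all genes, that of oligodendrocyte-like nuclei alone moved by over 0.1, from -0.12 to 0.07 with TMM and 0.03 with size factors. Kcnq3 in endothelial-like nuclei turned from -1.78 to 0.64 with no doublet removal. With at least 1000 genes per nucleus no nuclei were named mural-like, with no doublet removal the Sncg-like type had 48 saline nuclei and was not compared, and with all genes allowed no cluster was named layer 5 or 6 IT-like. Equal weight per nucleus gave no interval and so no calls. No paired analysis was possible because each group is 1 library, so the groups share 1 replicate number.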

Other observations

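Some of the unnamed clusters are given here, with values of some of the 9 genes. The cluster led by Ndst4 and Trdn, almost wholly of the METH library, had 118 Chrna7 UMIs (107 CPM), Chrm4 at 17.3 CPM, Chrna4 at 12.7 CPM and 0 Chat UMIs in its 202 METH nuclei. The cluster led by Ctss and Ikzf1, with the deepest nuclei, had 13 METH and 10 saline Chat UMIs, Chrna7 at 52.2 and 57.9 CPM, Chrna5 at 22.7 and 15.8 CPM and Chrm4 at 20.9 and 20.9 CPM in METH and saline. An unnamed excitatory cluster led by Il1rapl2 and Rftn1, of 187 METH and 362 saline nuclei, had Chrna7 at 66.5 and 52.1 CPM, Chrm4 at 28.1 and 30.0 CPM, Chrna4 at 19.8 and 21.2 CPM and Chrna5 at 16.7 and 17.4 CPM. A cluster led by Slfn4 and Ptprc, of 99 METH and 78 saline nuclei, had 6 METH and 9 saline Chrna4 UMIs. These were 1.04% and 1.36% of the Chrna4 UMIs, beside 0.293% and 0.367% of all UMIs. This cluster had 1 METH and 7 saline UMIs each of Chrm4 and of Chrna7, and 0 of Chat.

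Among the finer Pvalb-like clusters, that led by Tac1 had Chrna7 at 10.9 CPM (95% interval 3.54 to 25.4) in the METH library and 54.3 CPM (34.4 to 81.5) in the saline library, from 5 METH and 23 saline UMIs, under the minimum for a comparison; it was chosen after its values were seen.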
